A study of Canis lupus with 24 samples.

Results

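Mavacoxib-treated spheres of the canine bladder carcinoma line K9TCC were compared with mavacoxib-treated adherent cells of the same line. The comparison used 6 of the 24 arrays of the series, 3 of spheres and 3 of adherent cells, chosen by their labels, and 16295 genes that the array annotation names by a single symbol. Both groups received 50 μM mavacoxib, a long-acting inhibitor of cyclooxygenase-2 (COX-2) used in dogs, dissolved in dimethyl sulfoxide (DMSO), for 24 hours. The medium of adherent cells was DMEM-F-12 supplemented with 10% fetal bovine serum. Spheres were grown on ultralow attachment plates in serum-free N2 medium with insulin, transferrin, basic fibroblast growth factor (bFGF) and epidermal growth factor (EGF). The design text of the series, however, calls the sphere conditions anchorage dependent, and the labels do not settle whether seeding for attachment, described for transfection, also held for the mavacoxib arms. Culture form, serum and added growth factors changed together and cannot be told apart. The comparison asked how spheres and adherent cells differed in the presence of the drug; COX-2 activity was not measured here. Spheres and adherent cells that received DMSO alone, 3 arrays each, served as its reference, and 12 further arrays held both culture forms 48 hours after transfection with a negative control siRNA or an siRNA labelled COX-2.

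The lining of the bladder is a layered epithelium in which basal cells, marked by keratin 5 (KRT5), keratin 17 (KRT17) and the transcription factor TP63, lie under luminal cells that carry uroplakin plaques on their free surface. Carcinoma lines are grown as floating spheres without serum to favour cells with the ability to renew themselves. COX-2, encoded by PTGS2, makes the precursor from which prostaglandin synthases form prostaglandin E and its relatives.

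Arrays agreed closely within a group. Pearson correlations over all 27766 array features were 0.9934 to 0.9945 among the adherent arrays, 0.9903 to 0.9938 among the sphere arrays and 0.9294 to 0.9335 between them. The labels do not say whether the arrays within a group are separate cultures, and the p-values therefore measure only the spread between these arrays, which may be technical. Epithelial origin was checked with 13 urothelial and epithelial markers, whose mean log2 signal was 9.28 to 9.43 in adherent cells and 8.75 to 8.85 in spheres. EPCAM, an epithelial adhesion molecule, read 8.96, 9.15 and 9.15 in spheres and 10.10, 9.97 and 9.95 in adherent cells. Of 12 leukocyte markers 10 lay under 4.82, the median of all values, in both groups, PTPRC (CD45) among them with 2.54 to 2.74 in spheres and 2.67 to 2.95 in adherent cells.

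A large share of the measured genes differed between spheres and adherent cells under mavacoxib: 7633 of 16295, or 46.8%, passed an adjusted p of 0.05 in limma's moderated test with Benjamini-Hochberg adjustment over all genes. Of these, 3593 genes (22% of those tested) were higher in spheres and 4040 (24.8%) were lower. At least 2-fold differences were found for 2965 of the called genes, 1563 of them higher and 1402 lower. Differences of at least 16-fold numbered 279, with 179 higher and 100 lower, and 62 genes differed at least 64-fold. The lower group mean lay under 4.82 for 243 of the 279 genes, where signal may be background, and in that case their fold differences are lower bounds. Shifting every array to a common median moved the median difference of all genes from -0.05 to -0.21 on the log2 scale and turned the split into 2846 higher and 5389 lower genes, so directions of small differences depend on the scaling.

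PTGS2, the gene for the drug's target, was higher in spheres. It read 12.25, 11.93 and 11.99 in spheres and 9.15, 9.59 and 9.70 in adherent cells on the log2 scale, without overlap. The difference was 2.58 ± 0.13 (log2, standard error, n = 3 and 3, limma adjusted p = 1.01e-13). An exact two-sided permutation test of the same 6 arrays gave p = 0.1, the smallest it can give. With DMSO the difference was 2.51, and the test of the change between DMSO and mavacoxib gave 0.06 ± 0.18 (limma adjusted p = 0.902). In the transfected arms the PTGS2 difference was -0.68 with the negative siRNA and 0.15 with the siRNA labelled COX-2.

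Around PTGS2, 8 of 21 measured genes of the prostaglandin pathway were higher in spheres, 5 were lower and 8 did not pass, with a median log2 difference of 0.32. Of the 21 genes 61.9% were called, against 46.8% of all genes. The receptor gene PTGER2, which responds to prostaglandin E, read 8.29, 9.10 and 8.95 in spheres and 3.09, 3.75 and 2.57 in adherent cells, a difference of 5.64 ± 0.25. PTGES, the inducible synthase of prostaglandin E, went the other way at 6.13, 5.62 and 5.67 in spheres against 9.26, 9.04 and 9.05 (-3.31 ± 0.19). Sphere signals were thus high for a receptor and low for the terminal synthase. The prostacyclin synthase gene PTGIS was higher by 2.11, and HPGD, whose product inactivates prostaglandins, by 3.18. The other 4 lower genes were PLA2G4A, which releases the fatty acid precursor (-0.82), PTGER1 (-0.59), PTGES3 (-0.52) and PTGES2 (-0.39), and 3 in place of 5 remained called when spheres replicate 1, spheres replicate 3 or adherent replicate 1 was left out. PTGER1 and PTGES2 each depended on 4 of the 6 arrays for their call (limma adjusted p = 0.0813 to 0.106 and 0.0738 to 0.231 without 1 of them), and PTGES3 on spheres replicate 1 (0.0662). PTGES2 also did not pass with only the compared arrays (limma adjusted p = 0.0694) or with another variance model (0.0654).

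Basal and squamous keratin genes were among the largest rises in spheres. KRT5 read 12.31, 12.17 and 12.19 in spheres and 3.62, 3.12 and 3.57 in adherent cells, and its difference of 8.79 ± 0.19 was the largest rise among all genes (limma adjusted p = 4.91e-20). KRT17 read 11.03, 10.47 and 10.90 against 4.38, 3.86 and 3.59, a difference of 6.86 ± 0.23. TP63, the basal transcription factor, stood at 8.43, 8.45 and 8.66 against 4.50, 4.25 and 4.09 (4.23 ± 0.18). In each of these genes every sphere array lay far above every adherent array. Among 18 basal epithelial genes 10 were higher in spheres and 2 lower, LAMA3 by -0.77 and LAMB3 by -0.68, both encoding chains of the laminin under basal cells. Keratin genes are close relatives, and how far their probes are shared was not tested.

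Genes of epidermal differentiation rose with them: 17 of 26 were higher, 1 was lower and 8 did not pass, with a median of 1.36. KRT10, a keratin of upper epidermal layers, read 10.46, 9.64 and 10.59 in spheres and 2.75, 2.48 and 2.85 in adherent cells (7.54 ± 0.28). Its partner KRT1 read 10.34, 10.35 and 10.36 against 2.85, 3.57 and 3.28 (7.12 ± 0.24). Involucrin (IVL), a cornified envelope protein, was higher by 4.0 and the calprotectin subunit S100A9 by 5.16. The exception was the envelope plakin PPL at -1.74. SPINK5, a protease inhibitor of stratified epithelia, was bright in both forms, 12.27, 12.01 and 12.08 against 7.96, 7.85 and 8.43 (4.04 ± 0.15).

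The other largest rises belonged to no single list. CDH13, a cadherin anchored by a lipid tail, read 11.66, 11.64 and 11.76 in spheres and 2.97, 3.39 and 3.14 in adherent cells (8.52 ± 0.15). STC1, a secreted glycoprotein hormone, stood at 11.91, 11.97 and 11.83 against 3.82, 3.65 and 3.62 (8.21 ± 0.17). Podoplanin (PDPN), a surface mucin, differed by 7.87, and FADS1, a desaturase of polyunsaturated fatty acids, by 7.58. All sphere arrays of these genes were near or above 11, and all adherent arrays under 4.82. Further rises were STEAP1 (7.69) and STEAP2 (7.45), of a metalloreductase family, SERPINB10 (7.58), the adhesion molecule NECTIN3 (7.46), GLIPR1 (7.36) and the ubiquitin hydrolase UCHL1 (7.28). Metallothionein MT2A, which binds metal ions, was bright in both forms and higher in spheres by 3.74 ± 0.17, and LOC100686073 by 4.61 ± 0.13.

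Luminal genes were low in spheres: 16 of 19 were lower, UPK1B alone was higher and 2 did not pass, with a median of -1.41. UPK3A, a uroplakin, read 4.01, 3.65 and 3.45 in spheres and 11.40, 11.26 and 11.42 in adherent cells, a difference of -7.66 ± 0.29. UPK1A read 4.16, 4.03 and 4.19 against 11.46, 11.17 and 11.07 (-7.11 ± 0.18). UPK2 differed by -5.34. The uroplakin UPK1B was the exception at 12.10, 11.79 and 11.88 against 10.71, 10.24 and 10.36 (1.49 ± 0.14). VGLL1, a cofactor of TEAD transcription factors, fell by 7.81 on the log2 scale and the pioneer factor FOXA1 by 3.55. GATA3, a luminal transcription factor, differed less, by -0.76 ± 0.15.

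**Figure D1:**
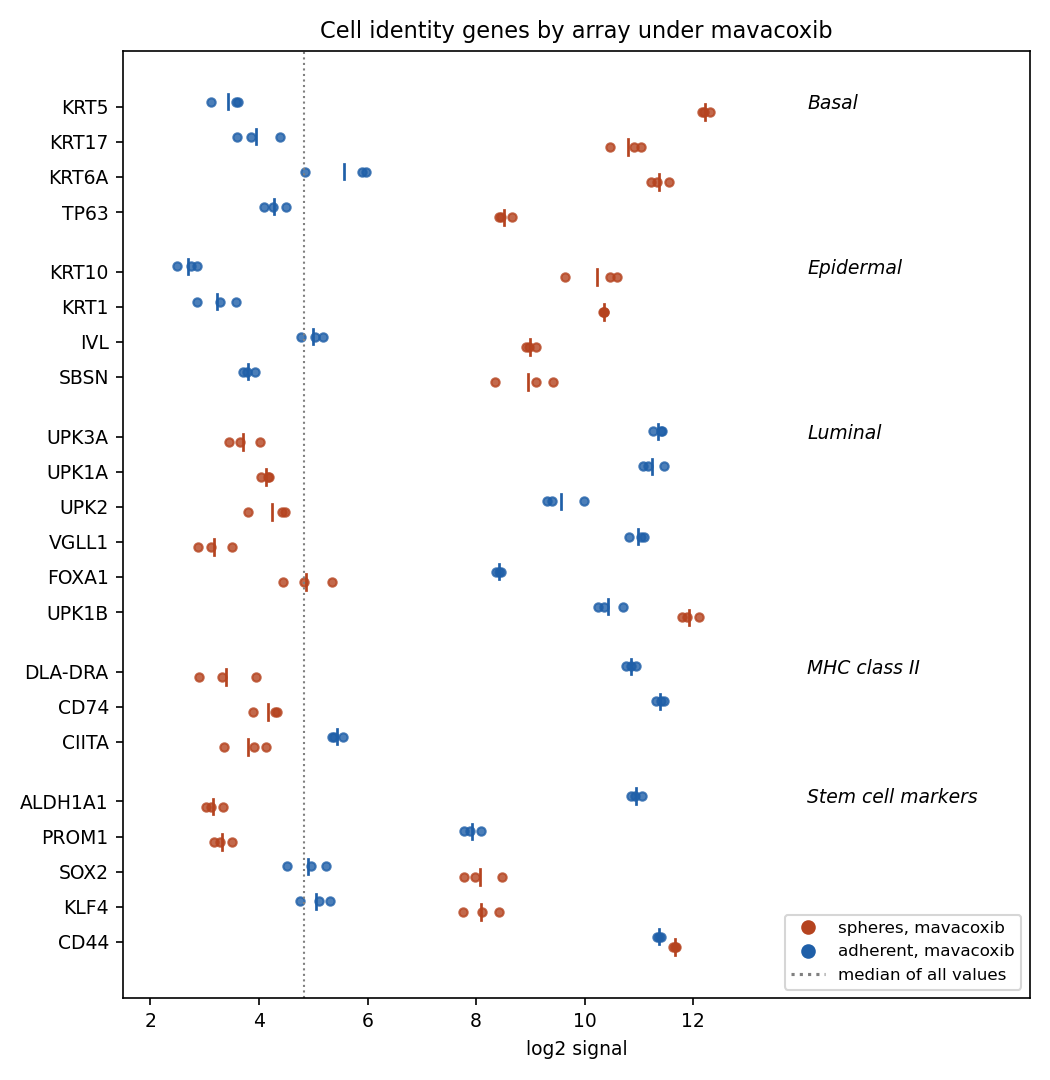
Log2 signal (horizontal axis) of basal, epidermal, luminal, MHC class II and stem cell marker genes in each of the 3 sphere arrays and 3 adherent arrays with mavacoxib; vertical bars are group means and the dotted line is the median of all values, 4.82. Sphere arrays of KRT5 lie near 12 and those of UPK3A near 4, with adherent arrays the other way round, and CD44 is nearly level.

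Antigen presentation genes were also lower in spheres. Of 11 MHC class II genes 7 were lower, RFXAP was higher by 0.32 and 3 did not pass. RFXAP, a class II promoter factor, lost its call without any 1 of 5 arrays (limma adjusted p = 0.0536 to 0.122), all but adherent replicate 1. It also lost its call once every array was shifted to a common median (limma adjusted p = 0.3). DLA-DRA, the alpha chain of a class II molecule of the dog, read 3.94, 2.89 and 3.32 in spheres and 10.94, 10.86 and 10.76 in adherent cells (-7.47 ± 0.20). CD74, the chaperone of class II molecules, read 3.88, 4.34 and 4.30 against 11.46, 11.41 and 11.31 (-7.22 ± 0.20). The master regulator CIITA was dimmer throughout and differed by -1.63 ± 0.18. The class II median was -1.42 with mavacoxib and -2.49 with DMSO. The test of the change called 4 of the 11 genes higher and 0 lower, against 4.49% and 5.82% of all genes. These were CIITA (change 0.86), DLA-DMA (1.77), DLA-DMB (1.29) and DLA-DQA1 (0.81), while DLA-DRA and CD74 did not pass. Class I processing genes followed with 12 of 16 lower, the trimming peptidase ERAP2 at -3.03, the transporter TAP1 at -1.33 and the immunoproteasome subunit PSMB9 at -1.57, while NLRC5, an activator of class I genes, was higher by 1.25 and the chaperone CALR by 0.43. The other large falls were the sialyltransferase ST8SIA6 (-7.86), the sphingomyelin synthase SGMS1 (-7.40), the copper ferroxidases CP (-7.24) and HEPH (-7.12), LOC611685 (-7.10) and ANXA10 (-6.89).

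Markers used for cancer stem cells differed in both directions. Of 21 measured, 7 were higher in spheres, 5 were lower and 9 did not pass, with a median of 0.04. The share called was 57.1%, against 46.8% of all genes. ALDH1A1, an aldehyde dehydrogenase often used to sort stem-like cells, read 3.03, 3.11 and 3.34 in spheres and 11.06, 10.92 and 10.85 in adherent cells, a difference of -7.78 ± 0.23. ALDH1A3 differed by -5.69, PROM1 (CD133) by -4.60 and SALL4 by -3.76. Against these, the pluripotency factor SOX2 read 7.77, 7.97 and 8.47 against 5.23, 4.96 and 4.52 (3.17 ± 0.22), KLF4 was higher by 3.04 and THY1 by 2.38. CD44 was bright in all 6 arrays, at 11.69, 11.67 and 11.62 in spheres and 11.33, 11.40 and 11.37 in adherent cells (0.29 ± 0.08, limma adjusted p = 0.00517). MYC fell by 0.33 (limma adjusted p = 0.0195), and did not pass without adherent replicate 1, spheres replicate 2 or spheres replicate 3 (limma adjusted p = 0.0539, 0.0711 and 0.0517). After quantile normalization MYC did not pass either (limma adjusted p = 0.0854). ALDH1A1 and ALDH1A3 also make retinoic acid, and within 14 genes of retinoid metabolism 6 were higher and 5 lower: LRAT, which esterifies retinol, was higher by 3.19 and the carrier RBP4 by 3.98.

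Mesenchymal genes were higher in spheres in 10 of 15 cases, and 5 did not pass, with a median of 1.34. TGFBI, a matrix protein induced by TGF-beta, read 9.17, 9.18 and 9.18 in spheres and 3.32, 3.18 and 2.81 in adherent cells (6.07 ± 0.13). N-cadherin (CDH2) read 7.27, 7.71 and 8.08 against 3.30, 3.35 and 2.95 (4.49 ± 0.18). E-cadherin (CDH1), the epithelial counterpart, remained bright in both, 10.98, 11.07 and 11.02 against 11.92 to 12.02 (-0.96 ± 0.09). Vimentin (VIM) differed by 1.34 ± 0.10, while ZEB1, a repressor of epithelial genes, was at 2.53 to 3.10 in spheres and 2.82 to 2.94 in adherent cells (limma adjusted p = 0.799). Fibroblast markers stood at a mean of 4.07 to 4.17 in spheres and 3.55 to 3.63 in adherent cells, with 7 and 10 of 11 under the median of all values, among them DCN, LUM and PDGFRB in both forms. Of the 11 markers 4 were higher in spheres: THY1 by 2.38, COL3A1 by 2.12, COL1A1 by 1.79 and COL1A2 by 0.56. PDGFRA was the 1 lower marker (-0.58) and bright in both forms, 8.75 to 8.96 in spheres and 9.36 to 9.44 in adherent cells. The share called, 45.5%, was near the 46.8% of all genes. The part of these markers in the mesenchymal result was not tested.

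Junction and matrix genes split by member. Of 17 tight junction genes 10 were lower in spheres and 4 higher. CLDN4 read 6.42, 6.33 and 6.20 in spheres and 10.48, 10.48 and 10.49 in adherent cells (-4.17 ± 0.20), and CLDN3 differed by -2.98. CLDN1 was the reverse at 10.15, 10.57 and 10.34 against 6.86, 6.51 and 6.68 (3.67 ± 0.21), and the other 3 higher genes were PARD3, CLDN12 and CLDN7 at 0.89, 0.63 and 0.37, the last not passing without spheres replicate 1 (limma adjusted p = 0.0738). CLDN7 also did not pass with every array shifted to a common median (limma adjusted p = 0.113). Of 25 collagen genes 15 were higher and 2 lower (COL5A1 by -0.58 and COL15A1 by -0.57, limma adjusted p = 0.0571 for the second without spheres replicate 3), with COL12A1 at 2.09 and COL17A1, an anchor of basal cells, at 2.08. Basement membrane genes gave 3 higher and 8 lower of 18: the laminin chain LAMA4 read 9.04, 8.87 and 9.09 against 2.30, 2.57 and 3.40 (6.24 ± 0.19), NID2 (nidogen) was higher by 4.53 and LAMC3 by 1.58, and LAMA5 fell by 1.36. Of 27 metalloproteinase and inhibitor genes 11 were higher and 6 lower, 63% called against 46.8% of all genes. The collagenase MMP1 was at 6.96 and the inhibitors TIMP1 and TIMP2 at -1.56 and -1.21. Integrin genes gave 4 higher, 6 lower and 9 not called, and their 52.6% called was near the 46.8% of all genes. ITGA5 (a fibronectin receptor chain) was at 3.99, ITGB8 at 1.67 and ITGA7 at -3.55.

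Growth factor signalling lists showed both directions. In the TGF-beta and BMP list 14 of 28 were higher and 4 lower: the activin chain INHBA read 9.04, 8.97 and 9.06 in spheres and 3.74, 4.31 and 3.66 in adherent cells (5.12 ± 0.16), its antagonist FST was higher by 4.96, and BMP4 fell by 2.16. In the Wnt list 5 of 33 were higher and 11 lower, 48.5% called and so near the 46.8% of all genes, with the ligand WNT7A at 2.25, the receptor LGR6 at 2.44, the receptor FZD4 at -2.24 and the antagonist DKK1 at -2.89. In the Notch list 8 of 18 were higher and 3 lower, and the ligand DLL1 read 9.51, 9.77 and 9.63 against 5.42, 5.97 and 5.59 (3.98 ± 0.21). EGF family genes were split 5 and 5 of 15, with the ligands EPGN and AREG higher by 4.08 and 3.69 and the receptors ERBB3 and ERBB2 at -3.22 and -1.36. Of 21 genes of FGF receptors and ERK feedback 7 were higher and 11 lower: the inhibitor SPRY2 was at 2.20, the ERK phosphatase DUSP6 at -1.74 and FGF2 at -1.85. EGF and bFGF were additions to the sphere medium. Hypoxia and glycolysis genes were higher in 18 of 34 cases, with 58.8% called against 46.8% of all genes. ENO2 was higher by 2.96 and VEGFA by 2.14, and SLC2A3, a glucose transporter, fell by 3.77.

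The sphere difference under mavacoxib was then set beside the sphere difference with DMSO, which shares no array with it. With DMSO, 7505 genes (46.1%) were called, 22.8% of those tested higher in spheres and 23.3% lower. Of the 3593 genes higher with mavacoxib, 2802 (78%) were also higher with DMSO, 735 were not called and 56 were called lower. Of the 4040 lower genes, 2939 (72.7%) were also lower with DMSO, 1059 were not called and 42 were higher. Across genes, which are not independent replicates, the differences correlated with r = 0.922 (Pearson) and rho = 0.79 (Spearman), and KRT5, STC1, PTGS2 and UPK3A lay close to equal values. A direct test of the change (mavacoxib minus DMSO, same fit) called 1680 of 16295 genes, or 10.3%, with 732 (4.49%) higher and 948 (5.82%) lower under mavacoxib. Without spheres DMSO replicate 3 the test called 1945 genes, 33.6% of them higher in place of 43.6%, and with array weights it called 3950. Relative to DMSO within a culture form, mavacoxib separated 671 genes (4.12%) in adherent cells, 2.61% of those tested being higher and 1.5% lower, and 3491 genes (21.4%) in spheres, 11.1% higher and 10.3% lower.

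**Figure D2:**
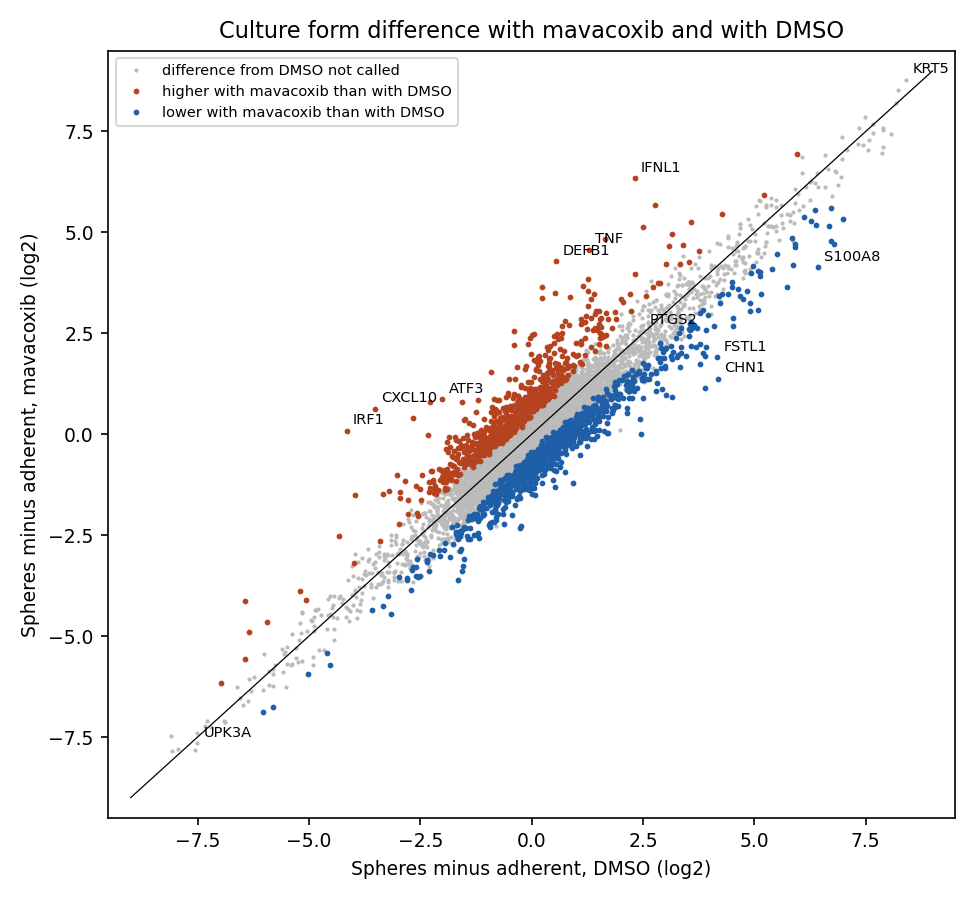
Each point is 1 gene: its log2 difference, spheres minus adherent, with DMSO (horizontal) and with mavacoxib (vertical), and the line marks equal differences. The 732 genes with a higher difference under mavacoxib are red and the 948 with a lower one blue; IRF1 lies at 0.09 with mavacoxib and -4.15 with DMSO, while KRT5 and PTGS2 lie near the line.

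Inflammatory genes headed the genes whose difference was higher with mavacoxib than with DMSO. IRF1, a transcription factor of interferon responses, read 9.20, 8.90 and 8.88 in mavacoxib spheres and 9.06, 8.81 and 8.83 in mavacoxib adherent cells, and 4.94, 5.03 and 4.25 in DMSO spheres against 8.96, 8.86 and 8.85. Spheres were far below adherent cells with DMSO and level with them under mavacoxib, a change of 4.24 ± 0.25 (limma adjusted p = 1.07e-09). The chemokine CXCL10 changed by 4.16 ± 0.27, from -3.52 with DMSO to 0.64. IFNL1, a type III interferon, read 9.72, 9.27 and 9.57 in mavacoxib spheres and 3.30, 2.62 and 3.63 in mavacoxib adherent cells, a difference of 6.34 ± 0.22 against 2.32 with DMSO. Its close relative IL29L differed by 3.64 and 0.24 in the same order, and shared probes were not tested. TNF, an inflammatory cytokine, read 8.89, 8.96 and 8.85 against 4.36, 4.17 and 4.45 (4.57 ± 0.21), and its DMSO difference was 1.29. The antimicrobial peptide gene DEFB1 went from 0.55 to 4.30, the transglutaminase TGM3 from 1.65 to 4.84 and TMEM52 from 0.22 to 3.38.

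Across the inflammatory lists the counts under mavacoxib went in both directions. In each of them the test of the change called more genes higher than lower, against 4.49% of all genes higher and 5.82% lower. Of 30 chemokine and cytokine genes 17 were higher in spheres and 4 lower, against 13 and 8 with DMSO, and the test of the change called 9 higher and 2 lower. CCL2 was higher by 5.93 and CCL5 by 5.13, the second with a change of 2.62, while CXCL14 changed by -1.92. NF-kB genes gave 9 higher and 3 lower of 21 against 4 and 8 with DMSO, and the test of the change called 10 higher and 1 lower, BIRC3 (-0.83). The feedback inhibitor NFKBIA read 10.92, 10.74 and 10.74 in spheres and 8.12, 7.94 and 7.99 in adherent cells (2.78 ± 0.13, change 1.58). BCL3 went from -0.39 with DMSO to 2.22. Among 14 genes of interferons and IRF factors 3 were higher and 4 lower, 50% called and so near the 46.8% of all genes. The test of the change called 2 of them higher, IRF1 and IFNL1, and did not call the other 12. Of 29 interferon response genes 12 were higher and 9 lower, with 9 higher and 4 lower in the test of the change. The ubiquitin-like ISG15 was at 3.49 with mavacoxib and 0.52 with DMSO, and the RNA sensor DDX58 at 2.70 and 0.84. IFI35, by contrast, was at -2.96 and -2.28. RSAD2, an antiviral enzyme, was higher in spheres by 3.28 with mavacoxib and 3.17 with DMSO. CD14 and LYZ, the leukocyte markers above the median of all values, were higher in spheres by 1.07 and 1.73 with mavacoxib and by 2.78 and 3.79 with DMSO. The mean of 12 leukocyte markers was 3.54 to 3.57 in mavacoxib spheres and 3.39 to 3.43 in mavacoxib adherent cells, and their part in the inflammatory results was not tested.

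Sterol synthesis genes were higher in spheres under mavacoxib in 14 of 17 cases, 1 was lower and 2 did not pass, with a median of 1.38 against 0.22 with DMSO. HMGCS1, an early enzyme of the pathway, read 11.54, 11.66 and 11.65 in mavacoxib spheres and 9.37, 9.19 and 9.0 in mavacoxib adherent cells, and 10.51, 10.73 and 10.31 against 10.02, 9.98 and 10.02 with DMSO. Its difference was 2.43 ± 0.12 with mavacoxib and 0.51 with DMSO, a change of 1.92 ± 0.17 (limma adjusted p = 1.97e-07). The sterol sensor partner INSIG1 went from 0.00 to 2.46. Relative to DMSO, HMGCS1 was lower by 0.82 in adherent cells and higher by 1.10 in spheres, so both culture forms contributed to the wider gap. The test of the change called 14 of the 17 genes higher and did not call the other 3, against 4.49% of all genes higher. TM7SF2, a late reductase, was the lower gene at -0.95. Fatty acid genes were higher in 16 of 23 cases, and 7 did not pass. Among the higher genes were the desaturase FADS2 (4.26), the phosphatidate phosphatase LPIN1 (3.86) and the synthase FASN (1.46). LPIN1 read 9.89, 9.86 and 9.82 in spheres and 6.03, 5.95 and 6.02 in adherent cells, and its change from DMSO was 2.58 ± 0.24.

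Proliferation genes were mostly lower in spheres with DMSO and divided under mavacoxib. Of 34 G1/S and replication genes 6 were higher and 16 lower with mavacoxib, against 2 and 28 with DMSO, and medians were -0.30 and -1.14. Of 34 mitosis genes 4 were higher (KIF4A, CDC25B, NDC80 and TTK) and 17 lower, against 32 lower with DMSO, with medians of -0.34 and -0.96, and 10 in place of 17 were lower without spheres mavacoxib replicate 1. TTK did not pass with every array shifted to a common median (limma adjusted p = 0.0731). The test of the change called 23 genes higher in each list and did not call the other 11, against 4.49% of all genes higher. CDC6, which loads the replicative helicase, read 8.19, 8.46 and 8.17 in mavacoxib spheres and 9.48, 9.40 and 9.49 in mavacoxib adherent cells (-1.18 ± 0.13), and its DMSO difference was -2.30. MCM2, a helicase subunit, differed by -0.02 with mavacoxib and -1.17 with DMSO, and was lower by 0.72 with mavacoxib than with DMSO in adherent cells and higher by 0.43 in spheres. NDC80, of the kinetochore, was higher in spheres by 0.65 with mavacoxib and lower with DMSO at -0.65. MKI67 differed by -0.41 and -0.86, a change that did not pass (limma adjusted p = 0.148). With the negative siRNA, by contrast, 25 of the 34 mitosis genes were higher in spheres (20.5% of all genes), NDC80 by 1.07, so the direction of this list varied among the 4 arms.

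In the list of endoplasmic reticulum chaperones and unfolded protein response 14 of 31 were higher and 7 lower with mavacoxib, against 8 and 13 with DMSO. The test of the change called 9 of the 31 higher and 2 lower, against 4.49% and 5.82% of all genes. XBP1, a transcription factor of that response, read 9.85, 9.94 and 10.02 in mavacoxib spheres and 9.06, 9.07 and 8.91 in mavacoxib adherent cells, and 8.07, 8.39 and 8.04 against 8.74, 8.74 and 8.72 with DMSO. The order of the culture forms was opposite in the 2 treatments, without overlap of arrays in either. HERPUD1, of the degradation machinery, went from -0.54 to 0.97 and the secreted factor MANF from 0.55 to 1.65. HSPA5, the main chaperone of this compartment, was higher in spheres by 0.61 and 0.66 with no change that passed (limma adjusted p = 0.922). ATF4 target genes were higher in 19 of 36 cases and lower in 6, with 18 and 7 for DMSO, and the test of the change called 3 higher and 2 lower, a share near that of all genes (10.3%). NUPR1 stood at 11.78, 11.86 and 11.92 against 6.92, 6.41 and 6.41 (5.27 ± 0.13), the hormone FGF21 was higher by 3.64, and CHAC1, a glutathione-degrading enzyme, fell by 1.62. DDIT3 was higher by 1.69 with mavacoxib and 1.82 with DMSO. PPP1R15A, a regulator of eIF2 dephosphorylation, went from -0.08 to 2.24.

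Apoptosis and p53 lists were small and mixed. Of 15 BCL2 family genes 8 were lower in spheres and 2 were higher, 66.7% called against 46.8% of all genes. The higher genes were both death-promoting: PMAIP1 (1.72) and BCL2L11 (0.61). Their DMSO differences were 0.15 and -0.80, and both changes passed the test. BAK1, also death-promoting, fell by 1.75 and the survival gene MCL1 by 0.83. Among 19 p53 targets 7 were higher and 8 lower. MDM2, the ubiquitin ligase of p53, read 8.55, 9.22 and 9.03 in spheres and 11.71, 11.85 and 11.85 in adherent cells (-2.87 ± 0.18), and the death receptor FAS differed by -3.70. GADD45B went from -0.01 with DMSO to 1.99.

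Genes of the aryl hydrocarbon receptor, a sensor of planar chemicals, and of the xenobiotic response were higher in spheres in 8 of 15 cases and lower in 2, the exporter ABCB1 (-1.34) and the receptor's partner ARNT (-0.40), which did not pass without adherent replicate 1 (limma adjusted p = 0.0602). CYP1A1, the receptor's classical target, read 11.72, 11.28 and 11.40 in spheres and 6.37, 6.63 and 6.81 in adherent cells (4.86 ± 0.17), and 4.42 separated the DMSO groups. CYP1B1 read 10.21, 10.20 and 10.04 against 4.97, 4.95 and 4.78 (5.25 ± 0.15), with a DMSO difference of 3.59 and a change of 1.66 ± 0.22. The receptor AHR itself was higher by 2.17 and its repressor AHRR by 3.28. In the transfected arms the CYP1A1 difference was 0.01 with the negative siRNA and 0.29 with the labelled COX-2 siRNA, whereas CYP1B1 remained at 3.12 and 2.95.

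Immediate early genes were higher in 12 of 23 cases and lower in 7 with mavacoxib, against 4 and 12 with DMSO. ATF3 read 10.85, 10.64 and 10.30 in mavacoxib spheres and 9.63, 9.89 and 9.66 in mavacoxib adherent cells, and 7.99, 7.89 and 7.63 against 9.70, 9.82 and 10.01 with DMSO. Spheres were above adherent cells with the drug and below them without it, a change of 2.88 ± 0.23 (limma adjusted p = 5.01e-08). FOS was below in both, at -1.01 and -3.02. EGR1 read 6.57, 6.82 and 6.71 in mavacoxib spheres against 10.99, 10.91 and 10.84 (-4.21 ± 0.17) and changed by -0.36, which did not pass (limma adjusted p = 0.443).

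The 8 genes with the largest decrease in difference under mavacoxib were all higher in spheres with DMSO. The calprotectin subunit S100A8 read 7.52, 7.25 and 6.98 in mavacoxib spheres and 3.08, 3.05 and 3.21 in mavacoxib adherent cells, a difference of 4.14 ± 0.23 against 6.43 with DMSO. FSTL1, a secreted glycoprotein, was at 1.91 and 4.17, the potassium channel KCNJ15 at 3.64 and 5.73 and KCTD21 at 0.93 and 3.16. SLITRK6 was at 0.01 and 2.46, and PRR9 at 1.14 and 3.88. CHN1, a Rac GTPase activator, reached its smaller gap on the adherent side: it read 6.48, 6.03 and 6.68 in adherent cells with mavacoxib and 3.08, 3.85 and 3.39 with DMSO, while spheres read 7.62, 7.80 and 7.90 and 7.59, 8.06 and 7.25. Its difference was 1.38 ± 0.28 with mavacoxib and 4.19 with DMSO.

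List counts in this direction were led by YAP targets, with 3 higher and 12 lower of 22 under mavacoxib against 9 and 11 with DMSO. The higher ones were FSTL1, the growth factor TGFB2 (1.74) and the receptor kinase AXL (1.16). The test of the change called 8 of the 22 lower, and 5 without adherent DMSO replicate 2 or without spheres DMSO replicate 1. CCN1, a matricellular YAP target, read 9.13, 8.29 and 8.33 in spheres and 10.99, 11.22 and 11.24 in adherent cells (-2.57 ± 0.15), with -1.18 for DMSO. The feedback gene AMOTL2 was at -1.86 and -1.16. The ERK phosphatase DUSP6 read 9.33, 9.26 and 9.12 against 11.06, 11.04 and 10.83 (-1.74 ± 0.11), and -0.37 with DMSO. Integrin, basement membrane, epidermal and hypoxia lists had 6, 6, 7 and 7 members called lower in the test of the change, against 5.82% of all genes. SBSN, an epidermal secreted protein, was at 5.15 with mavacoxib and 6.67 with DMSO. The glycolytic regulator PFKFB3 was at 2.17 and 3.69.

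**Figure D3:**
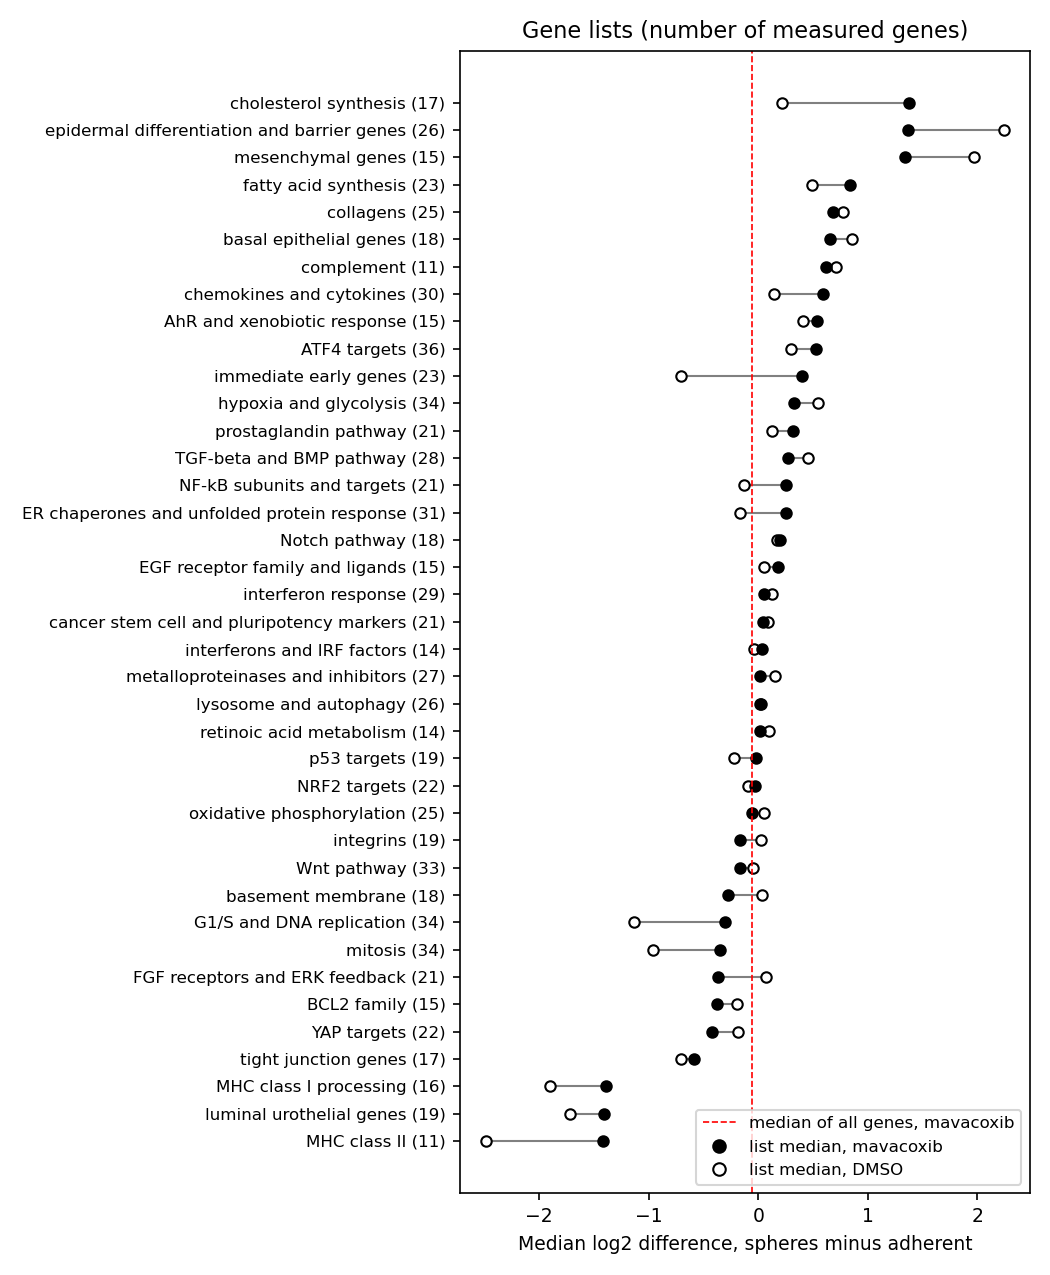
Median log2 difference, spheres minus adherent, of each gene list with mavacoxib (filled points) and with DMSO (open points); the number of measured genes is in brackets and the dashed line is the median of all genes with mavacoxib, -0.05. Cholesterol synthesis lies at 1.38 and 0.22, G1/S and DNA replication at -0.30 and -1.14, and luminal genes at -1.41 and -1.72.

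A small set of 98 genes was called in opposite directions in the 2 treatments, 56 higher in spheres with mavacoxib and lower with DMSO and 42 the reverse. LIPG, an endothelial-type lipase, read 9.11, 9.06 and 8.95 in mavacoxib spheres and 8.20, 8.28 and 8.24 in mavacoxib adherent cells, against 7.05, 7.05 and 6.96 and 8.72, 8.49 and 8.56 with DMSO, so the arrays separated in both treatments and in opposite order. SIK1, a kinase of the AMPK family, was at 0.86 and -1.20, and the mitochondrial carrier SLC25A25 at 1.54 and -0.90. The chromatin protein HMGB2 was at 0.63 and -0.83 and the RNA helicase DDX46 at 0.59 and -0.58. In the other direction the retinol dehydrogenase DHRS9 read 7.41, 7.85 and 7.91 in mavacoxib spheres and 8.84, 8.94 and 9.04 in mavacoxib adherent cells (-1.22 ± 0.18), with 0.94 for DMSO. The cyclin CCND2 was at -0.71 and 0.48. ARHGAP28, MTFR1L, SPRY4 and SH3BP5L had mavacoxib differences of -0.63, -0.58, -0.46 and -0.53 and DMSO differences of 0.46, 0.56, 0.66 and 0.39.

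**Figure D4:**
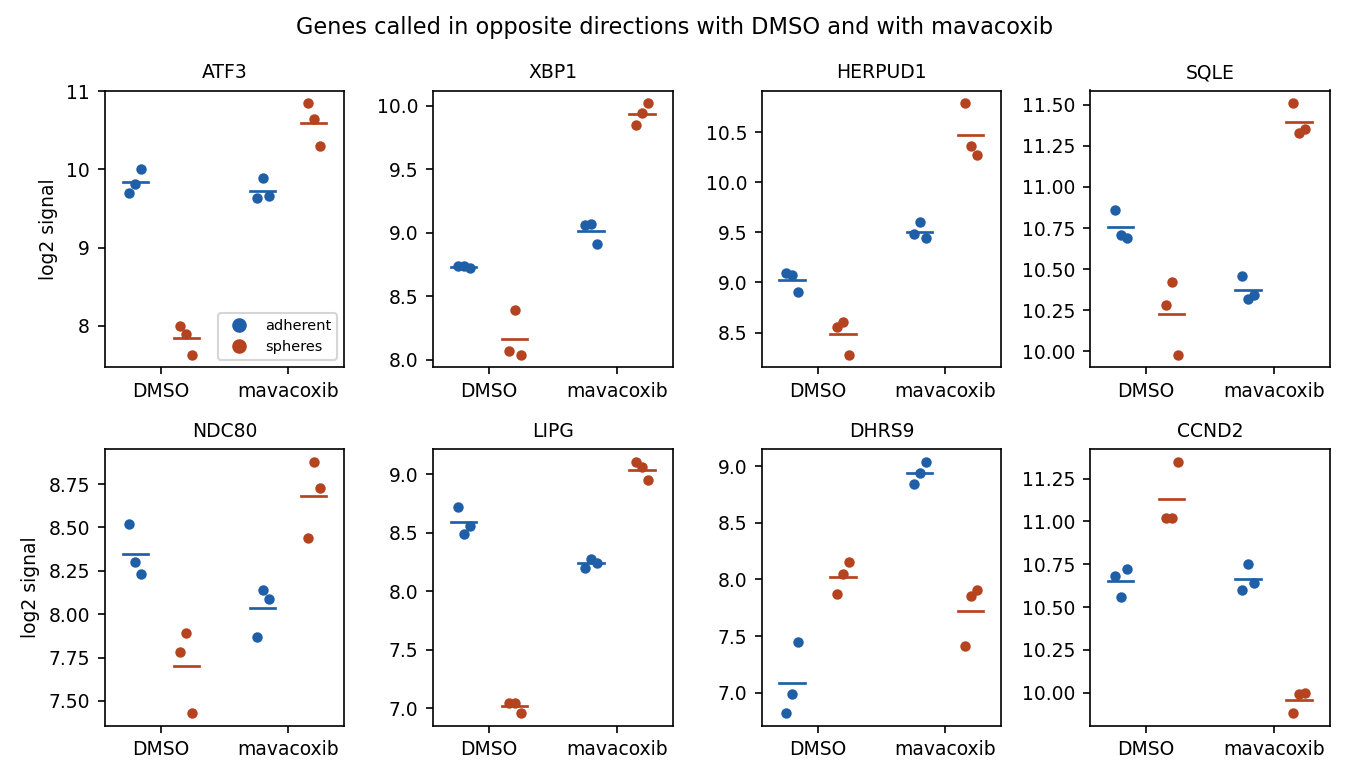
Log2 signal by array (points) with group means (bars) for 8 genes called in opposite directions with DMSO and with mavacoxib; vertical axes do not start at 0. Spheres lie below adherent cells with DMSO and above them with mavacoxib for ATF3, XBP1, HERPUD1, SQLE, NDC80 and LIPG, and the other way round for DHRS9 and CCND2.

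All 4 arms of the series were set side by side for the largest differences, with 42.7% of genes called with the negative siRNA and 48% with the siRNA labelled COX-2; differences between arms other than mavacoxib and DMSO were not tested. Of the 3593 genes higher in mavacoxib spheres, 1795 were higher in all 4 arms, and of the 4040 lower genes 1943 were lower in all 4. KRT5 differed by 8.79 with mavacoxib, 8.42 with DMSO, 7.54 with the negative siRNA and 8.55 with the labelled COX-2 siRNA, and UPK3A by -7.66, -7.50, -7.77 and -6.68. STC1 and KRT1 had smaller differences in both transfected arms. STC1 differed by 8.21 and 8.19 and then by 4.56 and 4.52, and KRT1 by 7.12 and 7.90 and then by 3.38 and 2.83. CCL2 was at 5.93, 5.23, 0.59 and 6.80, small with the negative siRNA alone. In the labels' account of transfection, both cell forms were seeded for attachment on the day before, and the transfected arms also ran for 48 in place of 24 hours.

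Neighbouring genes were read in the order of a wolf reference assembly, in windows of 15 genes with a mean above 4.82. This scan was made after the values were seen, and copy number was not measured. The mean was taken over all arrays, so genes dim in one culture form, such as STEAP1 and GLIPR1, entered through the form in which they were high, and the window medians and counts are a description only. The window medians had a median of -0.08 and ranged from -1.97 to 1.73. The lowest windows held MDM2, with 14 of 15 genes called lower and medians of -1.97 with mavacoxib, -1.96 with DMSO, -1.72 with the negative siRNA and -2.22 with the labelled COX-2 siRNA. The run of overlapping windows past 1.2 in size stretched from CYP27B1 to CHKB and held 47 genes, of which 40 were lower and 5 higher. RAB3IP (-2.97), MDM1 (-3.18), YEATS4 (-1.96) and FRS2 (-2.02) lay in it, and GLIPR1 (7.36) and SRGAP1 (2.01) were among its higher genes. At the other end stood windows from TFPI2 to STEAP1 with 14 of 15 genes higher and a median of 1.73, and 1.68 with DMSO.

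**Figure D5:**
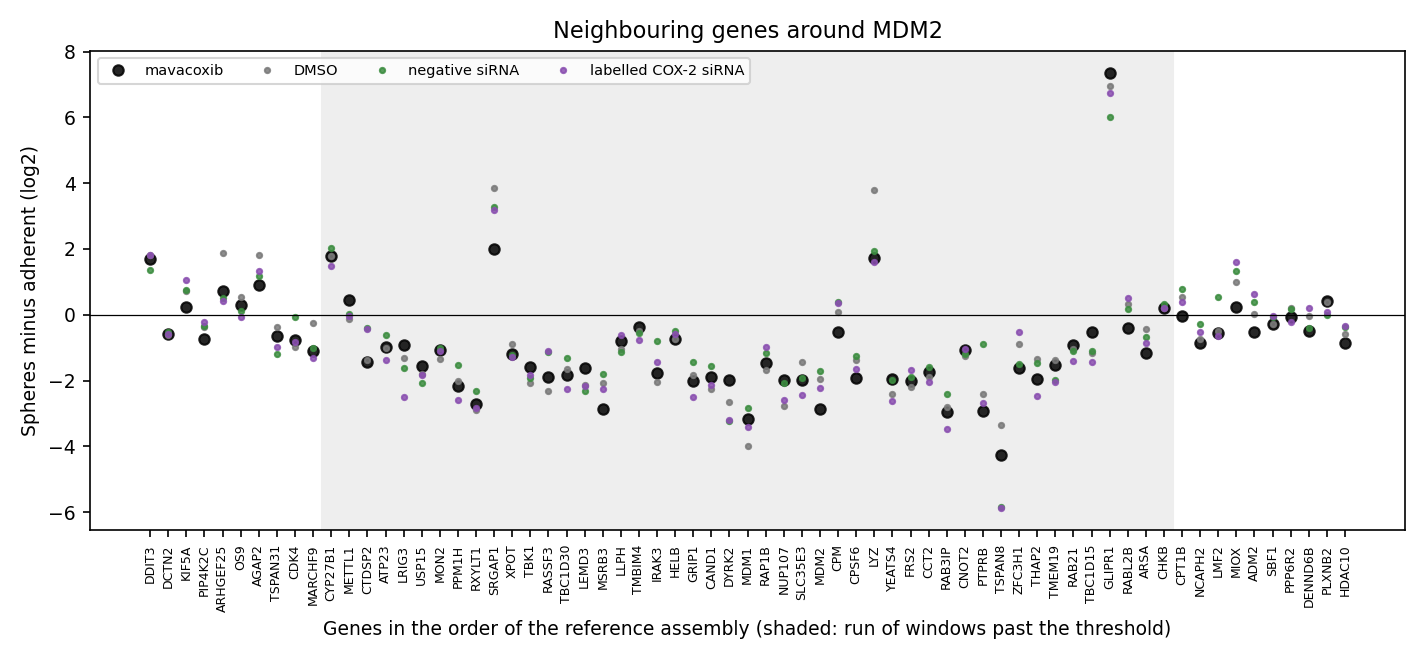
Log2 difference, spheres minus adherent, of genes in reference order around MDM2 in the 4 arms (black mavacoxib, grey DMSO, green negative siRNA, purple labelled COX-2 siRNA); the shaded part is the run of 47 genes. In the run 40 of 47 genes were called lower with mavacoxib, and GLIPR1 stands at 7.36 with mavacoxib.

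The remaining lists showed smaller or divided differences. Complement genes were higher in 6 of 11 cases, C1S by 2.49, and C3, the central component, fell by 3.10. Lysosomal and autophagy genes were 9 higher and 9 lower of 26, with the protease CTSH at -2.41. Among 22 NRF2 targets 5 were higher and 6 lower, 50% called and so near the 46.8% of all genes. HMOX1 (heme oxygenase) was at 1.42 and TXNRD1 (thioredoxin reductase) at -1.41. Oxidative phosphorylation genes were 7 higher and 9 lower of 25, within 0.74 and -1.30, and 1 in place of 7 was higher once every array was shifted to a common median. Medians of the stem cell, retinoid, interferon response, interferon and IRF, metalloproteinase and lysosome lists lay within 0.1 of 0. So did those of the p53, NRF2, oxidative phosphorylation and fibroblast marker lists. These medians are smaller than that shift of scale and have no settled direction.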

How the data were processed

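Total RNA of K9TCC cells was measured on 24 Affymetrix Canine Gene 1.1 ST arrays. The deposited values are log2 signals, made with Affymetrix Expression Console 1.1, per the submitters' processing notes; how probes were summarised and normalized is not given in the sources used here. Of 27766 features 16878 had 1 gene symbol in the platform annotation, and the brightest feature by mean over all arrays stood for each of 16295 genes, 521 of which had several features. Groups came from the sample titles. A limma 3.58.1 fit (R 4.3.3) of 8 group means over all 24 arrays (16 residual and 5.54 prior degrees of freedom) gave moderated tests, two-sided, with Benjamini-Hochberg adjustment over all genes at 0.05; the script was tested on simulated data. The change from DMSO is the interaction contrast of this fit. The number of arrays limits the precision: the median standard error of the mavacoxib difference was 0.158 on the log2 scale. Signals under 4.82, the median of all values, were treated as possible background.

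The 43 gene lists (980 distinct genes, 866 measured) and the comparison itself were chosen with earlier results of these data known, and members are described by counts and medians beside those over all genes. Named genes are PTGS2, the 12 largest rises and falls with separated arrays, the 6 largest of each direction with both means above 8, up to 5 members of each list and direction by adjusted p, the 8 largest changes from DMSO in each direction, 6 opposite calls in each direction, and members of any count of 5 or fewer. EPCAM, FOXA1, GATA3, CD44, VIM, ZEB1, FASN, MCM2, MKI67, HERPUD1, SQLE, HSPA5, DDIT3, PPP1R15A, PTPRC, DCN, LUM and PDGFRB, and neighbours of MDM2, were named after their values were seen. Gene order came from assembly mCanLup2.hap1, where 14154 symbols occurred; its coordinates were not used. No 2 arrays held identical values. Alternatives were quantile normalization, a common array median, dim genes left out, other feature choices, only the compared arrays, another variance model, array weights, a replicate block and each array left out.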

Additional observations from a re-analysis of the deposited data

Results flagged for a closer look

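The sphere difference changed between DMSO and mavacoxib in the test of the change itself (limma, adjusted over all genes) for 732 genes upward and 948 genes downward. No group had enough arrays for a test of single outlying arrays. The 8 largest upward changes on the log2 scale were IRF1 (4.24), CXCL10 (4.16), IFNL1 (4.02), DEFB1 (3.75), IL29L (3.40), TNF (3.28), TGM3 (3.19) and TMEM52 (3.15). Upward changes with opposite calls in the 2 treatments were ATF3 (2.88), SLC25A25 (2.44), LIPG (2.37), SIK1 (2.06), HMGB2 (1.46) and DDX46 (1.18).

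The 8 largest downward changes were CHN1 (-2.82), PRR9 (-2.74), SLITRK6 (-2.45), S100A8 (-2.29), FSTL1 (-2.26), KCTD21 (-2.24), DHRS9 (-2.15) and KCNJ15 (-2.09). Downward changes with opposite calls were DHRS9 again, CCND2 (-1.18), MTFR1L (-1.14), SPRY4 (-1.12), ARHGAP28 (-1.09) and SH3BP5L (-0.92).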

How the results depend on the processing

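Of 16295 genes, 7633 differed between mavacoxib spheres and adherent cells, and the count rose to 8299 with array weights. It was 7016 to 7150 when single arrays were left out. With dim genes left out it was 6681, of only 9945 genes tested. The count of genes with a change from DMSO, 1680, ranged from 1279 to 1945 without single arrays and was 2024 of 9945 without dim genes. It rose to 3950 with array weights, the cause of which was not tested. Deviations of same-numbered arrays correlated weakly (12 pairs, -0.171 to 0.15, 2 above 0.1). Pairs numbered 1 lay between -0.171 and -0.095, and pairs numbered 2 between -0.021 and 0.15. Differently numbered pairs and transfected arrays were not compared, so whether the number marks a shared deviation was not tested. With the replicate number as a block the counts were 7630 and 1624. None of the named genes run through these settings reversed its direction. Some named genes, such as IRF1, ZEB1 and MCM2, were not run through them for the mavacoxib difference. Of 367 named genes under 15 settings, 25 lost their call somewhere, in 53 of 5474 values. The 27 genes run for their change from DMSO kept their call in all 561 values. They were picked from these same data as the largest changes or the opposite calls with the smallest adjusted p, so this outcome was likely beforehand. Other reported changes, such as those of HMGCS1, XBP1 and NFKBIA, were not run through the settings. Without dim genes, fewer members remained to be tested: 4 collagen genes in place of 15, 8 chemokine and cytokine genes in place of 17 and 10 epidermal genes in place of 17 were higher. Among the lists whose count of changes from DMSO moved past 1.5 times were the YAP targets (8 lower, 5 without adherent DMSO replicate 2 or spheres DMSO replicate 1), the unfolded protein response (9 higher, 16 with array weights), the Wnt list (5 lower, 12 with array weights) and p53 targets (5 lower, 1 to 3 without several single arrays). Signals under 4.82 limit the size of 1989 called differences, which are lower bounds if that signal is background.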

Other observations

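Outside the named genes, 10888 features had no symbol or several, and 2199 of them (20.2%) differed between mavacoxib spheres and adherent cells, 951 higher and 1248 lower, against 44.1% of features with 1 symbol. Their log2 differences ran from -6.77 to 6.93, and 7063 of them had a mean under the median of all values. Besides the run around MDM2, other runs of neighbouring genes past 1.2 in window median were PON2 to ABCB1 (25 genes, 17 higher), OSBPL3 to PHF14 (23 genes, 18 higher), FZD3 to CHMP7 (22 genes, 19 higher), ABCG4 to CCDC15 (19 genes, 13 higher), RXRB to NEU1 (18 genes, 15 lower), POP1 to RRM2B (15 genes, 13 lower) and THAP7 to ZWINT (15 genes, 11 lower). The median difference of each run had the same sign in all 4 arms. The run from RXRB to NEU1 had medians of -1.22 with mavacoxib, -0.74 with DMSO, -0.92 with the negative siRNA and -0.71 with the labelled COX-2 siRNA.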
